A study of Mus musculus with 24 samples.

Results

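The genes of histamine synthesis, breakdown and sensing named here were Hdc (histidine decarboxylase), Hnmt (histamine N-methyltransferase) and the histamine receptor genes Hrh1, Hrh2 and Hrh4. They were chosen by name, and every array probe whose RefSeq transcript carries one of these symbols was taken. Of the 5 genes, 4 had a probe, with 7 probes in all among the 39429 probes on the array. Hdc and Hrh4 had 1 probe each, Hnmt had 2 and Hrh1 had 3. No probe could be matched to Hrh2, so the Hrh2 level was not analysed here.

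Cells make histamine by removing the carboxyl group of histidine, the step that Hdc catalyses. In the bone marrow and spleen, immature CD11b+ myeloid cells as well as basophils and mast cells are known to carry this enzyme. Histamine is inactivated inside cells by Hnmt, which transfers a methyl group to its ring. It acts through G protein-coupled receptors: the H1 receptor (Hrh1) couples to phospholipase C, the H2 receptor (Hrh2) raises cyclic AMP, and the H4 receptor (Hrh4), found mainly on blood cells such as eosinophils and mast cells, lowers it.

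RNA of CD11b+ cells was hybridised to 1-colour Agilent mouse arrays. The mice were male, on a Balb/C background and aged 10 weeks, and were wild type (WT), HDC-KO (no functional Hdc) or STAT6-KO (no functional Stat6). Cells came from the spleen or the bone marrow of control mice and of mice 1, 2 and 4 weeks after myocardial infarction (MI), a surgical injury of the heart. Each of the 24 conditions had 1 array, made from a pool of 5 mice, and the cells of every group were sorted for CD11b. Of these arrays, 22 were complete. The other 2, for the spleen of control HDC-KO mice and for STAT6-KO bone marrow 1 week after MI, held a fragment of the spots and were not used. Each of the 6 slides carried the 4 time points of 1 genotype in 1 tissue, in the same order of positions, so genotype within a tissue and slide cannot be told apart, nor can time after MI and position on the slide.

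A level here is the log2 signal of a probe minus the 75th percentile of its array, so that 0 is the 75th percentile and a step of 1 is a factor of 2. Between 70.4% and 79.8% of the spots of an array were well above background. Since no condition had a second array, genotypes were compared within a tissue with the time points as the repeats, and tissues over 10 pairs of arrays of the same genotype and time point. The p-values therefore measure the spread between pooled arrays of different time points or genotypes. They hold no spread between repeats of a condition, or between slides of the same genotype and tissue. They come from limma, adjusted over all genes tested in the comparison by Benjamini-Hochberg, and a difference was called at an adjusted p under 0.05. The probes of CD11b itself (Itgam), Itgb2 and Ptprc were well above background on all arrays. The lists of B cell (6 genes) and T cell (6 genes) markers were also above background on every array, with summed levels of 2.10 to 6.20 and 3.17 to 5.14.

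Hdc was the member with the clearest difference between genotypes. As the gene disrupted in HDC-KO, it is read there as a check of the labels, not as a response. In WT spleen its level was 4.54 in control and 4.73, 4.32 and 4.83 at 1, 2 and 4 weeks after MI. In HDC-KO spleen it was 1.76, 1.67 and 1.93 at 1, 2 and 4 weeks. The HDC-KO and WT arrays did not overlap. In WT bone marrow Hdc was 5.11 in control and 5.51, 4.75 and 5.11 after MI. In HDC-KO bone marrow it was 2.51 in control and 2.32, 2.78 and 2.36 after MI. Here too, all HDC-KO arrays were below all WT arrays. The STAT6-KO arrays overlapped with the WT arrays, at 5.29, 4.12, 4.46 and 4.78 in spleen and 5.04, 5.07 and 4.92 in bone marrow.

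**Figure D1:**
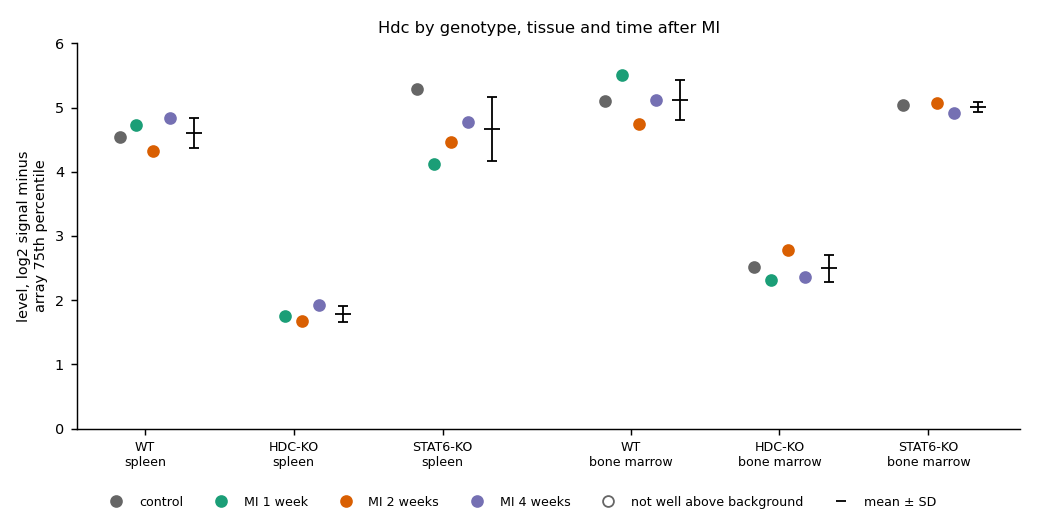
Hdc level (log2 signal minus the 75th percentile of the array) in each of the 22 arrays, grouped by genotype and tissue. Points are arrays coloured by time point, the bar beside them is the mean ± SD over 3 or 4 arrays. The HDC-KO arrays sit between 1.67 and 2.78, and all other arrays between 4.12 and 5.51.

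Ordered by their means, the groups ran from WT bone marrow (5.12 ± 0.31, SD, n = 4) through STAT6-KO bone marrow (5.01 ± 0.08, n = 3), STAT6-KO spleen (4.66 ± 0.50, n = 4) and WT spleen (4.61 ± 0.23, n = 4) to HDC-KO bone marrow (2.49 ± 0.21, n = 4) and HDC-KO spleen (1.78 ± 0.13, n = 3). Each of the first 4 groups overlapped in range with its neighbour, whereas the last 2 groups overlapped with no other. The difference of HDC-KO from WT was -2.73 in spleen (SE 0.23, 95% CI -3.26 to -2.19, adjusted p = 0.00596, limma), a 6.62-fold lower signal. In bone marrow it was -2.63 (SE 0.19, 95% CI -3.08 to -2.18, adjusted p = 0.00401, limma), a 6.18-fold lower signal. Hdc was the only 1 of the 4 members with a probe that passed the test in these comparisons on the probe of highest mean. Among all genes, 2.82% passed in spleen (0.748% lower, 2.08% higher) and 0.443% in bone marrow (0.247% lower). By size, the fall of Hdc was number 14 of 26485 genes tested in spleen and number 15 of 27102 in bone marrow. Over the 7 time pairs of both tissues Hdc was lower in HDC-KO in 7 of 7, by 1.97 to 3.19. The exact two-sided sign-flip test gave p = 0.0156, the smallest it can give. The pairs of a tissue share their slides, so they are not independent, which this test assumes. The fall did not differ detectably between the tissues (spleen minus bone marrow -0.10, 95% CI -0.77 to 0.57, adjusted p = 0.884, limma), a comparison in which 0.826% of all genes passed, 0.332% in the negative direction. None of the 4 members passed there by limma, and 1 of the 7 probes had an unadjusted p under 0.05.

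With a small number of arrays, the call for Hdc depended on which time points were in the fit. In spleen (HDC-KO against WT) the adjusted p was 0.06 without the MI 1 week arrays and 0.0996 without the MI 4 weeks arrays, and in bone marrow it was 0.0748 without MI 2 weeks and 0.141 without MI 4 weeks, while the differences stayed between -2.85 and -2.44. The Hdc probe was well above background on all 22 arrays, the HDC-KO arrays included. Where this probe lies relative to the part deleted in HDC-KO is not given in the sources used here. Whether its level in HDC-KO reflects intact transcript therefore cannot be told.

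STAT6-KO did not pass the test for Hdc in either tissue. In STAT6-KO spleen 0 of the 4 members passed by limma, and 0 of the 7 probes had an unadjusted p under 0.05, where 1.96% of all genes passed (0.676% higher, 1.28% lower). The difference from WT was 0.06 in spleen (95% CI -0.42 to 0.53, adjusted p = 0.894, limma) and -0.08 in bone marrow (95% CI -0.58 to 0.43, adjusted p = 0.871, limma). These intervals leave room for a fall of up to 0.58 or a rise of up to 0.53 on the log2 scale. Both genotypes were compared with the same WT arrays. As a check of the labels, Stat6 had the lower median in the STAT6-KO arrays on each of its 3 probes and in both tissues. The ranges overlapped in spleen on all 3 probes (1.94 to 2.44 against 2.38 to 2.90 on the probe of highest mean) and on none in bone marrow (1.76 to 2.34 against 2.78 to 3.70).

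Between the tissues, Hdc was lower in spleen than in bone marrow in 9 of 10 pairs. The pair differences were -0.57, -0.78, -0.43 and -0.28 in WT (control and 1, 2 and 4 weeks), and -0.56, -1.11 and -0.44 in HDC-KO (1, 2 and 4 weeks). In STAT6-KO they were 0.25 in control, the only positive value, and -0.60 and -0.14 at 2 and 4 weeks. The mean difference was -0.47 (SE 0.13, 95% CI -0.74 to -0.19, adjusted p = 0.00769, limma). The exact two-sided sign-flip test over the 10 pairs gave p = 0.00586. The pairs come from 6 slides that each hold 1 genotype and tissue, so they are not independent of the slide, and with the slide as a random block the adjusted p for Hdc was 0.542 (0.515 with no block for the pair). Across all genes 54.5% passed in this comparison, and the median difference of all genes was -0.17. Counted from the lowest difference, Hdc was number 8984 of 27671 genes tested. The adjusted p rose to 0.0798 without the MI 2 weeks pairs (-0.36), to 0.101 without the WT pairs (-0.43) and to 0.0639 without the HDC-KO pairs (-0.37).

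Marker lists of granulocytes did not all differ alike between the tissues. All 6 genes of the early granulocyte list (Mpo, Elane, Prtn3, Ctsg, Ms4a3 and Cebpe) were lower in spleen, as were all 6 of the specific granule list, with a median of -1.36. The summed early granulocyte level was 3.57 to 6.64 in the spleen arrays and 7.13 to 8.08 in the bone marrow arrays. The specific granule ranges overlapped, at 7.15 to 8.34 in spleen and 8.26 to 9.20 in bone marrow. Those of the mature neutrophil list also overlapped, at 7.60 to 8.77 and 8.48 to 9.13. Of 8 eosinophil markers, 1 was higher and 4 were lower in spleen. Their summed ranges overlapped, at 4.27 to 5.39 in spleen and 4.49 to 5.61 in bone marrow. All 9 macrophage markers with a probe rose in spleen, where their summed level was 6.09 to 7.56 against 4.19 to 5.32 in bone marrow. Across all genes 32.1% were lower and 22.4% higher in spleen. Of 14 basophil and mast cell markers, 5 were higher and 6 were lower, and the median of their summed level was 1.78 in spleen and 2.64 in bone marrow, with overlapping ranges. Itgam (CD11b) differed by -1.47 (adjusted p = 5.42e-06, limma). The part of these cells in the Hdc difference was not tested, and fewer cells of a type and less RNA per cell cannot be told apart in such pooled samples.

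Hnmt, the other enzyme, differed between the tissues on both of its probes. On probe 1, the probe of higher mean, the spleen arrays ran from -0.31 to 1.84 with a median of 0.63, and the bone marrow arrays from 1.26 to 2.66 with a median of 1.75. On probe 2 the spleen arrays ran from -0.92 to 1.29 (median -0.05) and the bone marrow arrays from 0.58 to 2.13 (median 1.09). Only the WT spleen MI 4 weeks array (1.84 on probe 1 and 1.29 on probe 2) reached into the bone marrow range. The 2 probes followed each other closely across the 22 arrays (Pearson's r = 0.99, as a description).

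**Figure D2:**
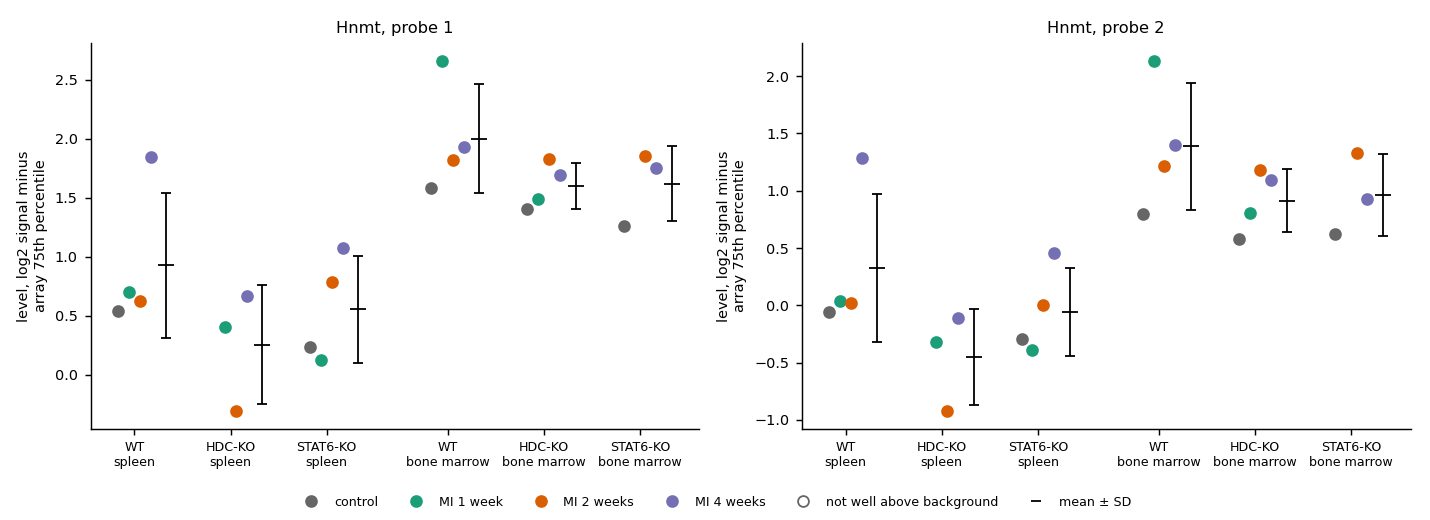
Hnmt level (log2 signal minus the 75th percentile of the array) on its 2 probes in each of the 22 arrays, by genotype and tissue, with the mean ± SD over 3 or 4 arrays. In both panels the spleen groups lie below the bone marrow groups, and the WT spleen MI 4 weeks array stands above the other WT spleen arrays.

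Hnmt was lower in spleen in 10 of 10 pairs on either probe. The mean difference was -1.13 on probe 1 (SE 0.18, 95% CI -1.52 to -0.74, adjusted p = 0.000199, limma), a 2.19-fold lower signal, and -1.14 on probe 2 (SE 0.19, adjusted p = 0.000297, limma). The exact sign-flip test gave p = 0.00195 on each, the smallest that 10 pairs allow. As for Hdc, these pairs are not independent of the slide. Leaving out any genotype or time point kept the call. Within WT the pairs ranged from -1.96 at 1 week to -0.09 at 4 weeks on probe 1, within HDC-KO from -2.13 to -1.02 and within STAT6-KO from -1.07 to -0.67. Both Hdc and Hnmt, 2 of the 4 members with a probe, were thus called lower in spleen in the main fit, against 32.1% of all genes tested. The call for Hdc was lost with the slide as a random block and without some genotypes or time points. The count is therefore no result about the members as a set.

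Differences of Hnmt between genotypes did not pass the test. HDC-KO was below WT in spleen by -0.79 on probe 1 (95% CI -1.37 to -0.21, adjusted p = 0.122, limma) and by -0.88 on probe 2 (95% CI -1.40 to -0.35, adjusted p = 0.0824, limma). In bone marrow the differences were -0.40 and -0.47 (adjusted p = 0.287 and 0.266). Over both tissues, HDC-KO was the lower in 6 of 7 pairs on probe 1 and in 7 of 7 on probe 2. The exact sign-flip test gave p = 0.0313 and 0.0156, not adjusted for the 7 probes looked at. Pairs of a tissue share slides here too, so they are not independent. STAT6-KO differed from WT by -0.37 and -0.38 in spleen and by -0.29 and -0.32 in bone marrow, with limma's adjusted p between 0.307 and 0.494.

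Hrh1, which encodes the H1 receptor, gave readings that depended on the probe. The array lists its 3 probes under the same RefSeq transcript. Probe 1, the probe of highest mean, was well above background on all 22 arrays and nearly flat: -3.40 to -2.79 in spleen (median -2.92) and -3.27 to -2.41 in bone marrow (median -3.12). Probe 2 was at -0.97, -1.81, -2.10 and -1.54 in WT spleen (control and 1, 2 and 4 weeks), at -1.31, -1.81 and -1.95 in HDC-KO spleen (1, 2 and 4 weeks) and at -1.68, -1.04, -1.53 and -1.41 in STAT6-KO spleen. In bone marrow the same probe was at -5.79, -8.02, -6.08 and -6.04 in WT, at -6.94, -6.40, -6.26 and -5.45 in HDC-KO and at -5.60, -5.35 and -5.74 in STAT6-KO (control, 2 and 4 weeks). No spleen array overlapped with a bone marrow array on probe 2. There, 3 of the 11 bone marrow arrays were not well above background. Probe 3 was the dimmest, at -7.19 to -4.55 in spleen and -6.43 to -5.75 in bone marrow, and was well above background on 10 of the 22 arrays.

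**Figure D3:**
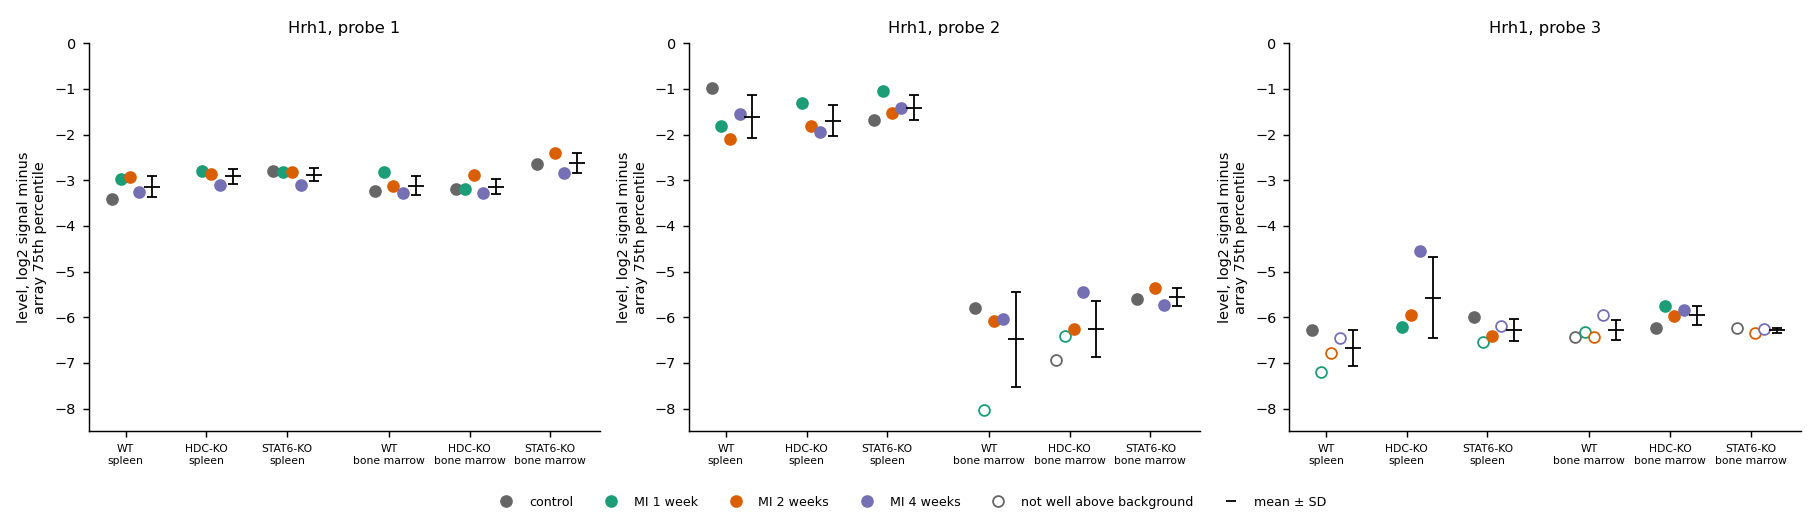
Hrh1 level (log2 signal minus the 75th percentile of the array) on each of its 3 probes in the 22 arrays, by genotype and tissue, with the mean ± SD over 3 or 4 arrays; open points were not well above background. Probe 1 is flat near its mean of -2.99, probe 2 lies between -2.10 and -0.97 in spleen and at or below -5.35 in bone marrow, and probe 3 is close to the background.

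On probe 2 spleen exceeded bone marrow in 10 of 10 pairs, by 3.50 to 6.21. The mean difference was 4.46 (SE 0.23, 95% CI 3.96 to 4.96, adjusted p = 5.55e-08, limma). Since the probe was well above background on 8 of the 11 bone marrow arrays and dim on all of them, the size is uncertain: it was 2.54 with another background correction (normexp) and 4.24 with a floor on dim signals. On probe 1 the difference was -0.03 (95% CI -0.25 to 0.19, adjusted p = 0.813, limma) and on probe 3 it was -0.04 (95% CI -0.43 to 0.35, adjusted p = 0.861, limma). Across the 22 arrays probe 1 and probe 2 had a Pearson's r of 0.02, probe 1 and probe 3 of -0.17, and probe 2 and probe 3 of -0.08. The mean over the 3 probes was higher in spleen by 1.46 (adjusted p = 2.35e-07, limma). A direction for the Hrh1 gene between the tissues therefore depends on the probe.

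Between genotypes, Hrh1 passed the test on probe 3 alone, in HDC-KO spleen. Its levels there were -6.20, -5.95 and -4.55 at 1, 2 and 4 weeks, against -6.28, -7.19, -6.79 and -6.44 in WT spleen, of which the control array alone was well above background. The difference was 1.22 (SE 0.25, adjusted p = 0.0464, limma), taken against a WT group near background, and it was 0.37 with normexp. The HDC-KO MI 4 weeks array stood highest. Without the MI 4 weeks arrays it was 0.87 (adjusted p = 0.165), without MI 1 week 1.36 (adjusted p = 0.148), without MI 2 weeks 1.41 (adjusted p = 0.132) and without the controls 1.24 (adjusted p = 0.0503). Probes 1 and 2 differed by 0.20 and -0.03 in the same comparison, with adjusted p of 0.47 and 0.971. In STAT6-KO bone marrow probe 1 stood at -2.64, -2.41 and -2.83, against -3.24, -2.83, -3.12 and -3.27 in WT (control and 1, 2 and 4 weeks). The ranges overlapped, and the difference of 0.53 (95% CI 0.18 to 0.87, adjusted p = 0.0959, limma) did not pass. Paired by time point, probe 1 was higher in STAT6-KO in 3 of 3 bone marrow pairs and in 7 of 7 over both tissues, by 0.11 to 0.71. The exact sign-flip test over the 7 gave p = 0.0156, the smallest possible, not adjusted for the 7 probes looked at. Since pairs of a tissue share slides, they are not independent.

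Hrh4, the receptor of blood cells, was higher in the STAT6-KO bone marrow. Its levels there were -1.94 in control and -1.83 and -2.12 at 2 and 4 weeks after MI. In WT bone marrow they were -4.52 in control and -2.55, -4.10 and -3.18 at 1, 2 and 4 weeks, and in HDC-KO bone marrow -3.63, -2.72, -3.23 and -2.91. The 3 STAT6-KO arrays lay above all other arrays of both tissues. In spleen, Hrh4 was at -3.36, -3.72, -3.59 and -3.44 in WT, at -3.41, -3.18 and -3.01 in HDC-KO and at -3.20, -3.46, -4.78 and -3.38 in STAT6-KO. The probe was well above background on all 22 arrays.

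**Figure D4:**
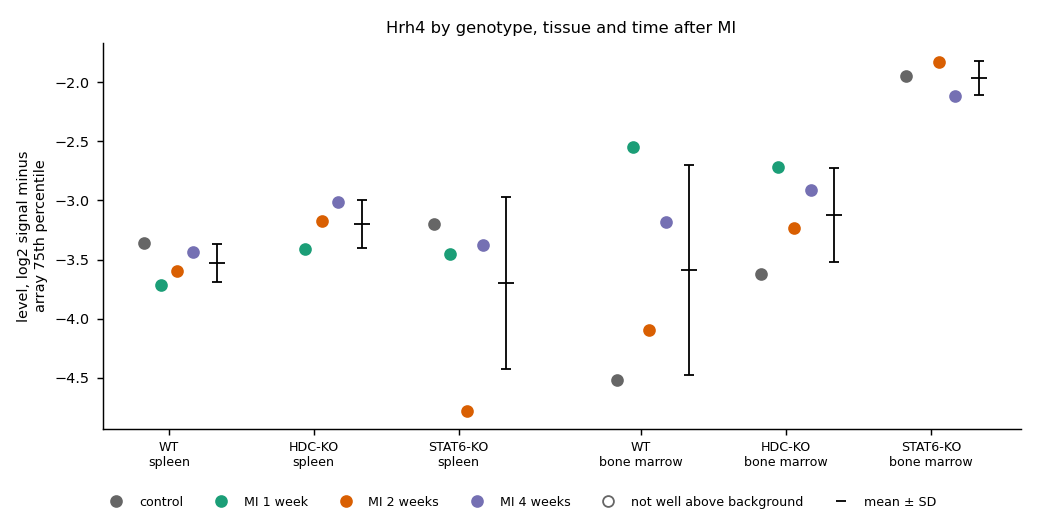
Hrh4 level (log2 signal minus the 75th percentile of the array) in each of the 22 arrays, by genotype and tissue, with the mean ± SD over 3 or 4 arrays. The 3 STAT6-KO bone marrow arrays, at -2.12 to -1.83, are above all the others, and the WT bone marrow arrays spread from -4.52 to -2.55.

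By group mean, STAT6-KO bone marrow (-1.96 ± 0.14, SD, n = 3) came first. HDC-KO bone marrow (-3.12 ± 0.40, n = 4), HDC-KO spleen (-3.20 ± 0.20, n = 3), WT spleen (-3.53 ± 0.16, n = 4), WT bone marrow (-3.59 ± 0.89, n = 4) and STAT6-KO spleen (-3.70 ± 0.73, n = 4) followed, each overlapping in range with the next. STAT6-KO bone marrow exceeded WT by 1.86 (SE 0.30, 95% CI 1.16 to 2.57, adjusted p = 0.0194, limma), a 3.64-fold higher signal, and by 1.06 to 2.57 in the 3 time pairs. It was 1 of the 4 members with a probe to pass there, where 4.62% of all genes tested passed and 3.99% were higher. In spleen the difference was -0.18 (95% CI -0.79 to 0.44, adjusted p = 0.731, limma). The difference between these effects, spleen minus bone marrow, came to -2.04 (SE 0.43, 95% CI -2.96 to -1.12, adjusted p = 0.0182, limma), in a comparison where 5.21% of all genes passed and 4.74% passed in this direction.

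Both calls depended on single time points. Without the control arrays the bone marrow difference was 1.55 (adjusted p = 0.14) and the difference between tissues -1.83 (adjusted p = 0.087), and without MI 2 weeks they were 1.69 (adjusted p = 0.192) and -1.53 (adjusted p = 0.162). Without MI 4 weeks the difference between tissues was -2.50 (adjusted p = 0.061). For HDC-KO against WT, the Hrh4 differences were 0.44 and 0.46 in spleen and bone marrow (adjusted p = 0.425 and 0.343), with HDC-KO higher in 6 of 7 pairs. Between the tissues Hrh4 differed by -0.60 (95% CI -1.31 to 0.12, adjusted p = 0.144, limma), with pairs from -2.96 to 1.16.

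Of the 8 eosinophil markers, 2 were called in STAT6-KO bone marrow, where 3.99% of all genes were higher. They were Il5ra (a chain of the receptor for the cytokine that sustains eosinophils) higher by 1.13 (adjusted p = 0.0202), and Ear1, a granule ribonuclease, higher by 0.78 (adjusted p = 0.0198), and the median of the 8 was 0.90. Their summed level was 5.13 to 5.32 in the 3 STAT6-KO bone marrow arrays, 4.91 to 5.61 in HDC-KO and 4.49 to 4.85 in WT bone marrow. In STAT6-KO spleen it was 4.92 to 5.39 and in WT spleen 4.27 to 4.69. The summed level thus lay above the WT range also in STAT6-KO spleen and in HDC-KO bone marrow, where Hrh4 did not pass. The part of eosinophils in the Hrh4 difference was not tested. None of the 12 basophil and mast cell markers tested in bone marrow passed in STAT6-KO, with a median of -0.14.

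**Figure D5:**
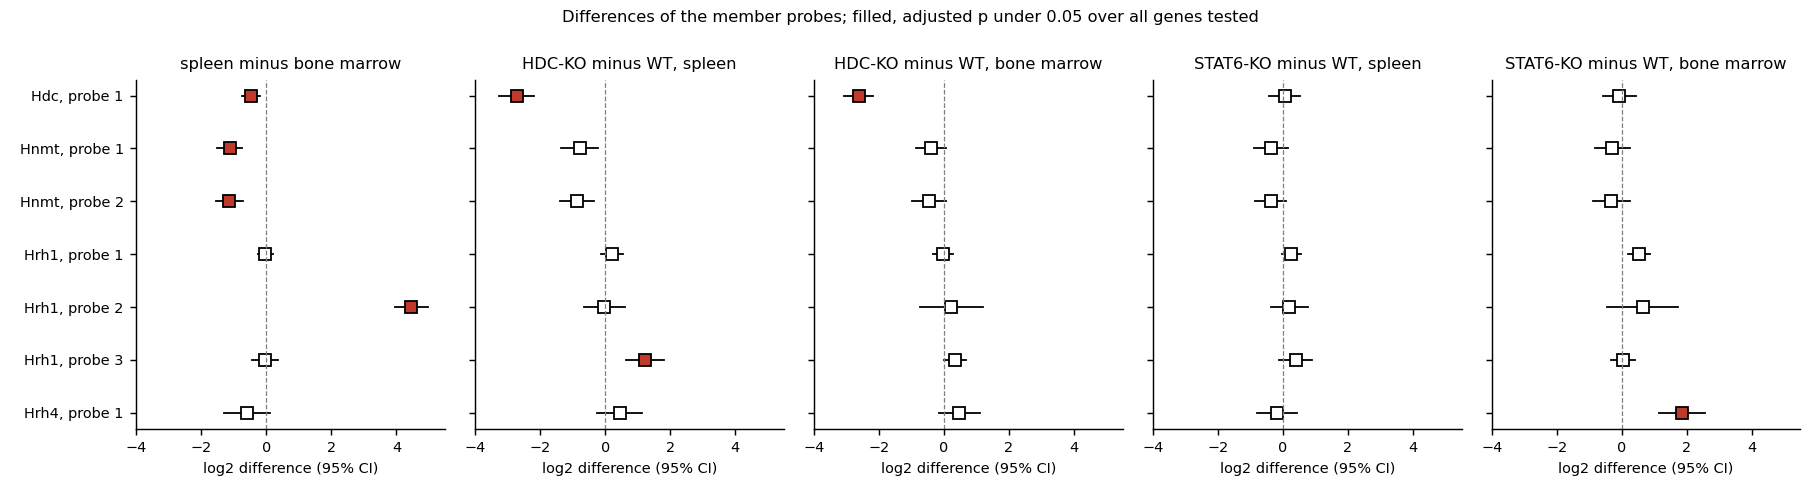
Log2 difference with its 95% confidence interval for each of the 7 probes in 5 comparisons, from limma; filled squares passed an adjusted p of 0.05 over all genes tested. Hdc stands apart in both HDC-KO panels (-2.73 and -2.63), Hrh1 probe 2 in the comparison of tissues (4.46) and Hrh4 in STAT6-KO bone marrow (1.86).

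After MI, no member passed the test in either tissue. Over the mean of the 3 time points against control, the 7 probes differed by -0.45 to 0.47 in spleen (adjusted p of 0.405 or more, limma) and by -0.11 to 0.74 in bone marrow (adjusted p of 0.248 or more, limma). At an unadjusted p under 0.05 there were 0 of 7 probes in spleen and 3 of 7 in bone marrow, namely Hrh4 and both probes of Hnmt. Among all genes 0.00378% passed in spleen and 0% in bone marrow. At single time points no member passed either, where 7.9% of all genes passed at 1 week and 2.25% at 2 weeks in spleen. Each genotype had at most 1 control array per tissue, so these differences lean on few arrays.

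Hdc after MI is given array by array. In WT spleen it differed from control by 0.19, -0.22 and 0.29 at 1, 2 and 4 weeks, and in STAT6-KO spleen by -1.17, -0.83 and -0.51. In bone marrow the differences were 0.41, -0.36 and 0.01 in WT, -0.19, 0.26 and -0.15 in HDC-KO, and 0.03 and -0.12 at 2 and 4 weeks in STAT6-KO. Each is a difference of 2 arrays and carries no test, and a difference between genotypes was not tested.

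Hrh4 in bone marrow was above its control at every time after MI in WT (1.97, 0.42 and 1.34 at 1, 2 and 4 weeks) and in HDC-KO (0.91, 0.39 and 0.72). In STAT6-KO it was 0.12 and -0.17 from control at 2 and 4 weeks. At 1 week the fitted difference was 1.27 (95% CI 0.43 to 2.12, adjusted p = 0.146, limma), where 0.148% of all genes passed. Hnmt in spleen was above its control at 4 weeks by 1.30 in WT and 0.84 in STAT6-KO on probe 1. The fitted differences were 1.01 on probe 1 (95% CI 0.32 to 1.70, adjusted p = 0.457, limma) and 0.95 on probe 2 (adjusted p = 0.446, limma).

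The promoters of 3 members are given because of their calls between the tissues. Hdc and Hnmt were called lower in spleen, Hdc not in all settings, whereas an Hrh1 probe was higher. The windows are the 250 bases before the RefSeq start of transcription (build GRCm38.p6). They were searched on both strands for TTCNNNGAA, a spacing bound by many STAT factors, for the same ends 4 bases apart, the spacing STAT6 prefers, and for AGATAA, bound by GATA factors. Capitals mark a match.
Hdc, chr2:126618679-126618928, minus strand: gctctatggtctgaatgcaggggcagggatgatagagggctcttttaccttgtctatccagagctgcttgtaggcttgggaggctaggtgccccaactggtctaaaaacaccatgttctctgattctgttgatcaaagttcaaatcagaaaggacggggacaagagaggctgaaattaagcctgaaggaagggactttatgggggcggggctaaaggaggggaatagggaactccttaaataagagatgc
Hnmt, chr2:24049380-24049629, minus strand: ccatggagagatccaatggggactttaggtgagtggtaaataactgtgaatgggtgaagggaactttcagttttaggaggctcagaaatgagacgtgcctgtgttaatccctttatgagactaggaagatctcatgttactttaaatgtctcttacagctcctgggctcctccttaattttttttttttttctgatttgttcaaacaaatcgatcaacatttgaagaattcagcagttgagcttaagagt
Hrh1, chr6:114397686-114397935, plus strand: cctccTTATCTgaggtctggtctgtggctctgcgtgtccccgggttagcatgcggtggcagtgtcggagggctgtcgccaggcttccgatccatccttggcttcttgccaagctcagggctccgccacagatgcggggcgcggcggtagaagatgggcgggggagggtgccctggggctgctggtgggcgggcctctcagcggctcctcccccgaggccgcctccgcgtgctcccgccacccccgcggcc
Neither the Hdc nor the Hnmt window held any of these letters. The Hrh1 window, the first of 4 starts listed for the gene, held AGATAA once, on the opposite strand, and the other 3 starts held none of them. Of 32851 such windows in the RefSeq table, 5.85% held the STAT6 spacing, 7.02% held TTCNNNGAA and 9.99% held AGATAA. No match says only that these letters are not in the window. Hrh4, the member called in STAT6-KO bone marrow, is not among the 3, so the search does not bear on that call.

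The rest of the histamine pathway was read from lists. Of 10 genes tested for synthesis, breakdown and transport, Hdc and Hnmt included, 6 were lower and 1 was higher in spleen than in bone marrow, with a median of -0.80 against -0.17 for all genes, of which 32.1% were lower and 22.4% higher. The lower ones included the membrane transporter Slc22a3 (well above background on 7 of 11 bone marrow arrays and 0 of 11 spleen arrays, so that no size is given), the aldehyde dehydrogenase Aldh2 (-1.67), the histidine-degrading enzyme Hal (-1.65) and the vesicular monoamine transporter Slc18a2 (-1.62). Slc22a3 was tested only because of its bone marrow arrays, so its place among the 6 is no support for a difference. Maob, a monoamine oxidase, was the higher one, by 0.44. In HDC-KO, Hdc was the only one of the list to pass in either tissue, and in STAT6-KO none passed by limma in spleen (of 9 tested) or bone marrow (of 10).

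Of 23 G protein and effector genes of the receptors, 6 were higher and 11 lower in spleen, against 22.4% and 32.1% of all genes. Arrb2 (an arrestin, -1.74), Gna15 (a Gq-class subunit, -1.51) and Itpr1 (a calcium channel of the endoplasmic reticulum, 1.47) were among them. Gnai1, a Gi subunit, was among the 6, but was well above background on 8 of 11 spleen arrays and 0 of 11 bone marrow arrays, so no size is given. It was tested only because of its spleen arrays, so its place among the 6 is no support for a difference. In HDC-KO spleen 2 of the 23 were called higher, where 2.08% of all genes were. These were Prkaca (a catalytic subunit of protein kinase A, 0.97, adjusted p = 0.0252) and Gnai1 (adjusted p = 0.0455), which was well above background on 3 of 3 HDC-KO and 1 of 4 WT spleen arrays. Prkaca was also higher in STAT6-KO bone marrow (0.87, adjusted p = 0.0329). In STAT6-KO spleen Gnai1 was called higher (adjusted p = 0.0169, well above background on 4 of 4 arrays) against the same WT arrays, and Plcb2, a phospholipase C, was lower (-0.82). Both sets of comparisons share the WT arrays. Gnai1 was tested in spleen mainly because of the knockout arrays, so its calls there are no support either.

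Hrh3, the receptor known mainly from neurons, was the only further receptor gene with a probe and was well above background on all 22 arrays. In spleen it was lower than control at 1 week (-0.94, adjusted p = 0.0238, limma) and at 2 weeks (-0.90, adjusted p = 0.0463, limma), but not at 4 weeks (0.40, adjusted p = 0.574). Among all genes 7.9% passed at 1 week and 2.25% at 2 weeks there. The mean over the times after MI did not pass for Hrh3, and only WT and STAT6-KO had a spleen control array. Hrh3 passed in no comparison of tissues or genotypes.

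The protein-coding genes next to Hdc on chromosome 2 were looked at in HDC-KO. On the side of lower coordinates, Slc27a2, Atp8b4 and Dtwd1 did not pass in either tissue, with -0.63 for Atp8b4 in spleen (adjusted p = 0.0512). On the other side Gabpb1 did not pass, and Usp8, a deubiquitinase gene, was lower in HDC-KO bone marrow (a difference of -1.33, adjusted p = 0.0192) but differed by -0.14 in spleen (adjusted p = 0.846). Usp8 was also higher in STAT6-KO bone marrow by 0.78 (adjusted p = 0.041). Usp50 did not pass the filter on dim probes and was not tested.

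Across the 22 arrays the genes whose level followed Hdc most closely, as a description without a test, were Klhl25 (Pearson's r = 0.97), Rbbp9 (0.89), Crnkl1 (0.84), Arl2bp (0.83) and E030030I06Rik (0.81). Those running opposite were Vps16 (-0.95), Itpa (-0.94) and Dynll1 (-0.93). Of these 8 genes, Rbbp9, Crnkl1, Vps16 and Itpa lie on chromosome 2, as Hdc does. The share of that chromosome among all genes ranked was not counted, so nothing is read from this number. The 22 arrays include the HDC-KO ones, all low in Hdc. Over the 15 WT and STAT6-KO arrays alone, the genes of highest r were Ppard (0.94), Trappc9 (0.91), Gda (0.91), Cldn7 (0.89) and Serp1 (0.89), with Gpr89 (-0.85), Clns1a (-0.85) and Palb2 (-0.84) lowest. Among the members, Hdc and Hnmt probe 1 had an r of 0.35 over the 22 arrays and of 0.65 over those 15.

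Hnmt probe 1 ran most closely with Txnl4b (0.93), Krt86 (0.93), Tlr2 (0.93), Mfsd6 (0.93) and Pstpip2 (0.93), and opposite to Sesn1 (-0.93), Tmem186 (-0.92) and Bag5 (-0.92). For Tlr2, a receptor of bacterial lipoproteins, r was 0.86 within spleen and 0.79 within bone marrow. Hrh4 was followed by Olfr1008 (0.94), 1700012I11Rik (0.93), Jsrp1 (0.92), Kcnd3 (0.92) and Sv2b (0.92), with Abcf1 (-0.77), Psmd2 (-0.76) and Psmd12 (-0.75) lowest. Hrh1 probe 1 had Slfn9 (0.79), Gpr26 (0.78), Gm6654 (0.78), Gm10584 (0.77) and Ptpdc1 (0.77) at the top and Ttc1 (-0.73), Rasd1 (-0.71) and Utp4 (-0.70) at the bottom. Hrh1 probe 2 was followed by Adgra2, Sash1, Rtn1, Raver2 and Chn2, all at 0.98, and these fell to between 0.42 and 0.76 within a tissue (0.42 to 0.64 in spleen, 0.63 to 0.76 in bone marrow). All these correlations are over 22 arrays that share slides.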

How the data were processed

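CD11b+ cells of mouse spleen and bone marrow were measured on 24 1-colour Agilent arrays, of which 22 were complete. The authors labelled the RNA with Cy3 and read the scans with Agilent Feature Extraction 11.0.1.1. The deposited intensity used here is a background-subtracted, spatially detrended spot signal, not scaled between arrays; the deposited median spot and background intensities served for normexp. Log2 was taken and the 75th percentile of each array subtracted. GCRMA is named in the submitters' processing notes; its output was not used here.

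Probes were named through their RefSeq transcript (27234 of 39429 matched). Control spots and 3055 outlier spots were left out. A gene was read by its probe of highest mean, with further probes of the members tested beside it, and probes well above background on under 2 arrays of a fit were left out. Fits used limma 3.58.1 (R 4.3.3), with the pair as a block between tissues, time as an additive term between genotypes, genotype as one for MI, and an interaction term for tissue by genotype. Fits were tested on simulated data with independent noise on each array and no slide effect, so this test does not cover differences between slides. Pair differences were also tested by flipping their signs in every way (an exact permutation test, two-sided). Named genes were all members, up to 4 examples of each list (the largest changes past the threshold), the 5 genes of highest and 3 of lowest correlation, and 3 neighbours each side of Hdc. Alternatives were normexp (offset 50), quantile and median scaling, a floor, other filters, the mean over probes, other blocks, leaving out each time point or genotype, and the methods' t-test. The array number limits the precision. The members and lists were chosen with earlier results of these data known. Python 3.11.15 and matplotlib 3.10.9 drew the plots.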

Additional observations from a re-analysis of the deposited data

Results flagged for a closer look

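For Hrh4 the differences of STAT6-KO from WT in the tissues were called as unlike. Spleen less bone marrow came to -2.04 on the log2 scale (limma interaction term, adjusted p = 0.0182). The call was lost with normexp, with the replicate block and without some single time points. Genotype within a tissue and slide cannot be told apart, so a response to the genotype was not shown. Among the 28 groups of 4 arrays (7 probes), 5 held an array far from the other 3. The rule gives about 1 in 20 by chance for independent groups of repeats, which these are not. The arrays of a group are different time points, and both Hnmt probes flag the same array. Hnmt in WT spleen stood at 1.84 (probe 1) and 1.29 (probe 2) at MI 4 weeks, against at most 0.70 and 0.04 on the other 3 arrays. Hrh4 in STAT6-KO spleen was at -4.78 at MI 2 weeks, against -3.46 to -3.20. Hrh1 was at -8.02 on probe 2 in WT bone marrow at MI 1 week, where it was not well above background, and at -3.10 on probe 1 in STAT6-KO spleen at MI 4 weeks, against -2.82 to -2.80.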

How the results depend on the processing

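Between the tissues, 2 of the 4 members passed, and 1 passed without the replicate block, with the slide as a random block, and by the methods' t-test with or without Benjamini-Hochberg adjustment; Hnmt held in each of these, Hdc did not. Leaving out a time point or a genotype gave 1 to 2. In HDC-KO spleen 1 member passed and 0 with normexp; in HDC-KO bone marrow 1 passed and 0 with the 2 genotypes fitted alone. In STAT6-KO bone marrow 1 passed and 0 with the 2 genotypes alone or by the methods' t-test after adjustment. For the STAT6-KO effect compared between tissues, 1 passed, and 0 with normexp or with the replicate block. In each of these last 4 comparisons, leaving out 1 time point gave 0 to 1. With the block of genotype and time point, the Hrh4 value was -2.22 (adjusted p = 0.0674). All other counts of members stayed at 0. Hrh1 probe 1 between the tissues changed sign near 0: 0.0087 with median scaling, 0.00604 by the methods' t-test with or without adjustment, and -0.133 to 0.0728 on leaving out arrays. The mean over the 3 Hrh1 probes was 1.46. Hrh1 probe 2 and both Hnmt probes kept their direction and call between the tissues in every alternative run. Hrh1 probe 3 in HDC-KO spleen lost its call with normexp (0.37), quantile scaling (0.89), median scaling (1.05), the floor (0.87), no filter (1.22, adjusted p = 0.0554) and by the methods' t-test (1.11). Of 63 probe values in the 9 main comparisons, 46 had no unadjusted p under 0.05 and passed in no setting, and 25 of these changed sign in at least 1. The causes were not tested. With 3 or 4 pooled arrays a group, and 1 array a condition, small differences between genotypes or after MI were not detectable, and dim probes (Hrh1 probe 3, and Hrh1 probe 2 in bone marrow) lie near the background.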
